A study of Mus musculus with 6 samples.

Results

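Obp1a, Obp1b, Obp2a, Gm5938, Lcn2, Lcn11, Apod and Mup4 are 8 genes of the lipocalin family, or in the case of Gm5938 a predicted neighbour of the odorant-binding protein genes, out of 50686 genes in the count table of the lacrimal gland. They were taken by name as odorant-binding protein and lipocalin genes, and their identifiers were matched to symbols of the mouse build GRCm38. Of the 8, 7 passed the filter on low counts and could be tested, and Obp2a had 0 counts in every library. Total RNA was sequenced from glands of 3 Eda-/- mice, titled Tabby, and of 3 wild-type mice, titled Blacky, as biological replicates. All 6 mice were 13 weeks old and carried the strain label C57BL/6, and no treatment was named. Eda encodes the TNF-like ligand ectodysplasin A, which many skin appendages and some exocrine glands need to form. The labels name no promoter, Cre or cell type for the loss of Eda.

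Lipocalins are small proteins, mostly secreted, that fold into a barrel with a pocket for a hydrophobic ligand such as an odorant, a pheromone, a retinoid, a steroid or an iron-binding siderophore. In rodents the odorant-binding proteins and the major urinary proteins (MUPs) are made by nasal, lacrimal and other exocrine glands or by the liver, and they carry volatile compounds in secretions. Lipocalin 2 and apolipoprotein D are made by many cell types. The lacrimal gland secretes the watery part of the tear film, and lipocalins are a main class of tear proteins.

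Library totals were 11894395 to 14480331 counts in the Eda-/- glands and 13670343 to 15700899 counts in the wild-type glands. Eda had 2, 0 and 0 counts in the Eda-/- glands, against 41, 48 and 42 in the wild-type glands. All 8 listed markers of lacrimal acinar cells were tested, of which 2 rose and none fell. Over all tested genes 6.21% were higher and 6.9% were lower. The summed level of the 8 markers, most of it Mucl2, was 89544 to 139532 CPM (counts per 1e6 counts of the library, scaled by the trimmed mean of M-values, TMM) in Eda-/- glands and 40905 to 43520 CPM in wild-type glands. Among them Ltf, which encodes the tear protein lactoferrin, was at 749 ± 53.2 CPM in Eda-/- glands and 704 ± 105 CPM in wild-type glands (SD, n = 3 each). Genes with any counts numbered 21897 to 22416 in the Eda-/- libraries and 24637 to 26240 in the wild-type libraries. The 20 most abundant genes outside the 8 took 51.0% ± 0.69 of all counts in Eda-/- glands and 44.3% ± 0.23 in wild-type glands (SD, n = 3 each), and Mucl2, a secreted mucin-like gene, alone took 9.85% ± 2.52 in Eda-/- glands and 4.23% ± 0.14 in wild-type glands. Because of that difference in composition, each gene is given below both as a TMM-scaled level and as a plain share of all counts. Fold changes are Eda-/- over wild-type from edgeR's quasi-likelihood test on TMM-scaled counts unless library totals are named. The median of all 13178 tested genes was at 0.00 (log2) with TMM and at -0.28 with library totals.

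Obp1a, Gm5938 and Obp1b lie within a stretch of chromosome X (GRCm38) that also holds Gm14743, an annotated gene outside the 8 that was read beside Obp1b. Obp1a is at 78085505 to 78091374 on the minus strand, Gm5938 at 78125467 to 78130403 on the plus strand, Obp1b at 78186777 to 78192292 on the plus strand and Gm14743 at 78240462 to 78245921 on the minus strand. Gaps of 34.1, 56.4 and 48.2 kb separate them in that order, and Eda itself starts 21.8 Mb beyond Obp1b on the same chromosome. Coding bases 190 to 489 of the 2 abundant genes, from GENCODE transcripts, are shown because the likeness of the pair bears on how far their reads can be told apart. They run 5′ to 3′ to the last base before the stop codon, with the bases that differ between the pair in capitals.
Obp1a: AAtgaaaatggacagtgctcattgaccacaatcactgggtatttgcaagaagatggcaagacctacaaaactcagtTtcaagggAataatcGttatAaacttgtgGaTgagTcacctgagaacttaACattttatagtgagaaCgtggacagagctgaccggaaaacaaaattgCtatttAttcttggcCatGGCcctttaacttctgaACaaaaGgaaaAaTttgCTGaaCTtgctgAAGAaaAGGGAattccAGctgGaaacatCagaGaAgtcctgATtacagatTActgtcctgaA
Gm5938: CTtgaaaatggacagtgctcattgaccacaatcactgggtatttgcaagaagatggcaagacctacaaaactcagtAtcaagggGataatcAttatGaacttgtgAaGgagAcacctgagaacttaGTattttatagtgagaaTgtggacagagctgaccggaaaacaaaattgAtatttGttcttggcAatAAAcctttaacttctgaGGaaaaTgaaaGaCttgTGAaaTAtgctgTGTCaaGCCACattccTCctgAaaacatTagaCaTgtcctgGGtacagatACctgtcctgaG

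Obp1a and Gm5938 each had 489 coding bases and were identical at 437 of them (89.4%). Of the 52 substitutions 48 lie in the stretch shown and 4 before it. Of the 31-base words in the transcripts of Obp1a 15.8% also occurred in another gene, which was Gm5938 for each of them, and of those of Gm5938 11.4% did. The counts of both are given separately. Obp1b is farther away, with 70.6% of aligned coding columns identical to Obp1a. Its near copy is Gm14743, which was identical at 512 of 513 coding bases. The single difference is G482A, counted from 1 at the first coding base with the Obp1b base first, and it is the capital in coding bases 452 to 512 of each gene.
Obp1b: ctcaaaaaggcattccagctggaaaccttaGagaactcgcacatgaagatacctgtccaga
Gm14743: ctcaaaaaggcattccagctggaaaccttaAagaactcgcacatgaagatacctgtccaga

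Of the 31-base words of Obp1b 80.7% occurred in Gm14743, and of those of Gm14743 84.9% occurred in Obp1b. How the counting treated reads that map to several places is not given in the sources used here, so the split of reads between Obp1b and Gm14743 is uncertain and both are given together.

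The 250 bases upstream of the RefSeq start (GRCm38.p6) are shown for the 4 genes because the 2 abundant genes are nearly alike there and the other 2 genes form a second such pair. Capitals mark TATAAA, the core promoter motif. The stretches are chrX:78091375-78091624 (minus strand) for Obp1a, chrX:78125217-78125466 (plus strand) for Gm5938, chrX:78186558-78186807 (plus strand) for Obp1b and chrX:78245922-78246171 (minus strand) for Gm14743.
Obp1a: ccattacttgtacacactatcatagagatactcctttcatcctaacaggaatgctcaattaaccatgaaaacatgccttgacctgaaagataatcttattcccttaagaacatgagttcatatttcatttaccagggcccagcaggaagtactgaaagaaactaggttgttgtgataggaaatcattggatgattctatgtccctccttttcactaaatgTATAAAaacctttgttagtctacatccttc
Gm5938: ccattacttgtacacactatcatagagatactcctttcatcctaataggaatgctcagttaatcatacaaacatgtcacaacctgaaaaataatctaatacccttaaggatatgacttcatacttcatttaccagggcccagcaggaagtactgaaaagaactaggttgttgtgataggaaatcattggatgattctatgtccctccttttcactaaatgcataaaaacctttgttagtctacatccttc
Obp1b: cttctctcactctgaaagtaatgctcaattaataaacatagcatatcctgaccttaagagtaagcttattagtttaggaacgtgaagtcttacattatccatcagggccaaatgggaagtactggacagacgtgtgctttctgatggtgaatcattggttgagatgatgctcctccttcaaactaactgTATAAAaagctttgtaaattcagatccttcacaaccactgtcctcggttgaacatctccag
Gm14743: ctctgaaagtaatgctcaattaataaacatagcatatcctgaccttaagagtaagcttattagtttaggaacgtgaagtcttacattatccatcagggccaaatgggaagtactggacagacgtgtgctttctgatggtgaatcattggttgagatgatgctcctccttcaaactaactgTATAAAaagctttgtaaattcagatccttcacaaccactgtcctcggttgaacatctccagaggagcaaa

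The stretches of Obp1a and Gm5938 were identical in 231 of 250 aligned columns (92.4%), with 19 differences. Those of Obp1b and Gm14743 start 9 bases apart in the shared sequence and were identical in all 241 overlapping columns. Obp1a and Obp1b were identical in 150 of 220 overlapping columns. TATAAA, searched on both strands, began 30 bases upstream of the RefSeq start in Obp1a, 61 in Obp1b and 70 in Gm14743. The window of Obp1b ends at 78186807, inside the gene as annotated for the counts, which starts at 78186777. Its distance is therefore counted from a later start and is shorter from the annotated one. In Gm5938 these letters were not in the window. Among the other genes TATAAA began 27 bases upstream in Mup4 and 61 in Obp2a and was not found in Lcn11, Lcn2 or Apod. It occurred in 12.4% of the 32851 promoters searched.

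CCAAT, another promoter motif, searched in the same way, was found in 33.8% of promoters. It lay on the minus strand in all 4 X-linked genes, 66 bases upstream in both Obp1a and Gm5938, and it was found in Lcn11 but in none of Mup4, Lcn2, Apod and Obp2a. TGTTCT, a core element bound by steroid receptors, was in 16.1% of promoters. It was found in Obp1a (144 bases upstream, minus strand) and Lcn11 (96 bases upstream, plus strand) and not in the windows of the other 7 genes searched. A match is a description of the sequence and no more.

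The 8 genes spanned the whole range of expression in the gland. Per kilobase of exon, Obp1a was highest, at 110481 to 146430 CPM per kb over the 6 libraries with a median of 128656. Gm5938 followed at 34404 to 48949, and Mup4 at 13231 to 18157. Lcn11 lay at 1528 to 2272 CPM per kb, Obp1b at 22.8 to 92.7, Apod at 2.91 to 8.49 and Lcn2 at 0.654 to 1.86. Obp2a was last, at 0. No 2 neighbours in this order overlapped in their ranges over the libraries. The exon length of Gm5938 includes a transcript that retains an intron, which lowers its level per kb.

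**Figure D1:**
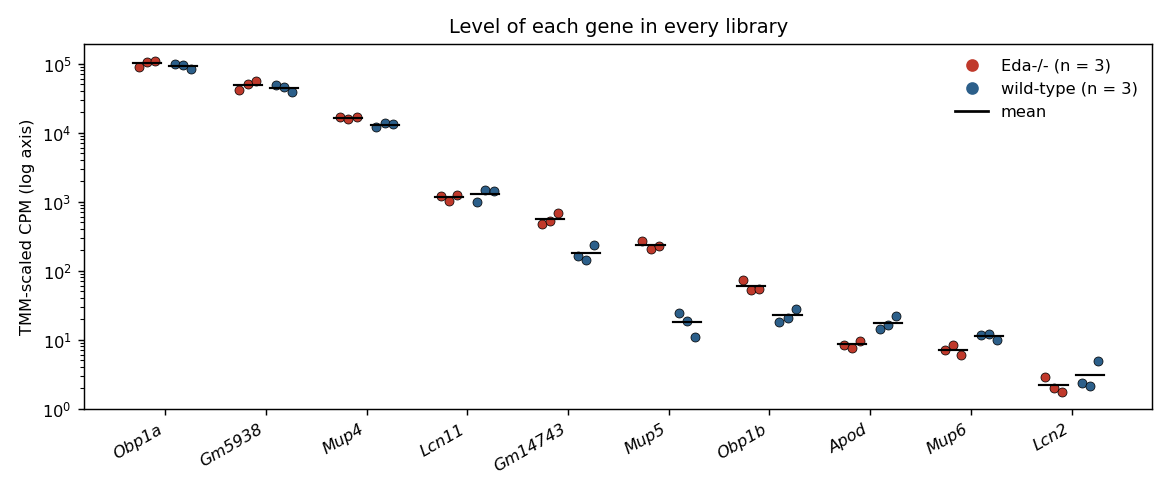
TMM-scaled CPM on a log axis for 7 of the 8 genes and for the relatives Gm14743, Mup5 and Mup6, 1 point per library, with Eda-/- libraries left of wild-type libraries and a bar at each mean. Obp1a and Gm5938 overlap between genotypes, Obp1b, Gm14743 and Mup5 lie higher in Eda-/- glands without overlap, and Apod and Mup6 lie lower without overlap. Obp2a had 0 counts and is not drawn.

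By total counts over the 6 libraries, Obp1a was the most abundant of the 35103 genes with any counts, Gm5938 ranked 5, Mup4 11 and Lcn11 46. Obp1b ranked 2080, Apod 4986 and Lcn2 9830. Together the 8 genes held 13.8%, 15.4% and 16.3% of all counts in the Eda-/- libraries and 17.4%, 16.8% and 15.6% in the wild-type libraries. Their share averaged 15.2% ± 1.28 in Eda-/- glands and 16.6% ± 0.92 in wild-type glands (SD, n = 3 each), a difference of -1.46 percentage points. The groups overlapped, and the exact permutation test (two-sided) gave p = 0.2, where 3 against 3 samples allow no p below 0.1. Leaving out 1 library moved the difference to between -2.03 points (without Eda-/- 3) and -0.77 points (without Eda-/- 1). The difference changed sign to 1.12 points (exact permutation p = 0.5) as a share of the counts outside the 20 most abundant other genes. The summed TMM-scaled CPM of the 8 genes is a level and not a share, and its mean was higher in Eda-/- glands. It was 147436, 171942 and 184270 CPM in Eda-/- glands and 161943, 155570 and 137199 CPM in wild-type glands (exact permutation p = 0.3).

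Of the 7 tested genes 2 rose (Obp1b and Mup4), 1 fell (Apod) and 4 did not pass at an adjusted p under 0.05 (Benjamini-Hochberg over all tested genes), and the median log2 fold change of the 7 was 0.13. Over all tested genes 13.1% passed, 6.21% higher and 6.9% lower. DESeq2 also called these 3, against 9.43% of all tested genes (4.16% higher, 5.27% lower), and edgeR with library totals called Obp1b and Apod, against 34.8% (1.87% higher, 33.0% lower). The same 3 of the 7 had groups that did not overlap in TMM-scaled CPM, as did 32.1% of all tested genes. No annotated gene overlaps any of the 8. In whole glands, fewer cells of a type and less RNA per cell cannot be told apart.

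**Figure D2:**
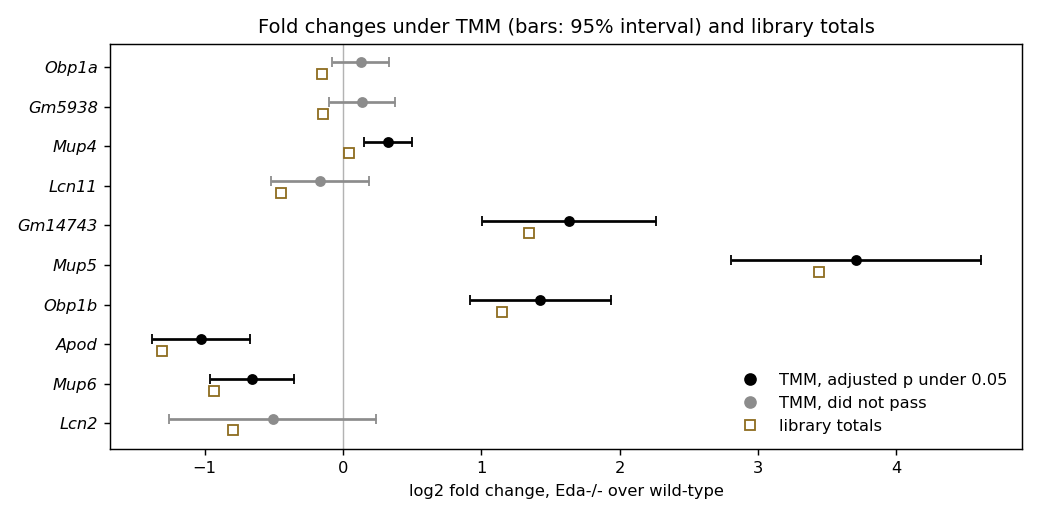
Log2 fold change of Eda-/- over wild-type for each gene with TMM scaling (circles with 95% intervals, black where the adjusted p was under 0.05) and with library totals (squares). Library totals move each value down by about the same amount, which puts Obp1a and Gm5938 on the other side of 0 and Mup4 at 0.046.

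Obp1a (ENSMUSG00000067684.1) encodes odorant-binding protein 1a, a carrier of volatile ligands. It had 1011896, 1123197 and 1421655 counts in the Eda-/- libraries and 1610421, 1604582 and 1302938 counts in the wild-type libraries, which are 8.26%, 9.44% and 9.82% against 10.8%, 10.2% and 9.53% of all counts. The groups overlapped, with the lowest wild-type share below the highest Eda-/- share. The share averaged 9.17% ± 0.81 in Eda-/- glands and 10.2% ± 0.64 in wild-type glands (SD, n = 3 each, exact permutation p = 0.2). On the TMM scale the order of the means turned round, and the level was 88349, 105263 and 110847 CPM in Eda-/- glands and 100415, 94371 and 83634 CPM in wild-type glands. The log2 fold change was 0.13 (SE 0.10, 95% interval -0.08 to 0.34, edgeR adjusted p = 0.429), and it was -0.15 with library totals. Obp1a did not pass with either scaling, and the 2 scalings give it opposite signs.

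Gm5938 (ENSMUSG00000079521.2), a predicted gene that RefSeq lists with the synonym OBP6, had 471290, 534218 and 710028 counts in the Eda-/- libraries and 774581, 782384 and 606194 counts in the wild-type libraries. These are 3.85%, 4.49% and 4.90% of all counts in Eda-/- glands and 5.20%, 4.98% and 4.43% in wild-type glands. As for Obp1a, the groups overlapped, and Eda-/- 1 was the lowest of the 6 libraries and wild-type 3 the lowest wild-type library. The TMM level was 41149, 50066 and 55361 CPM in Eda-/- glands and 48298, 46015 and 38911 CPM in wild-type glands, a log2 fold change of 0.14 (SE 0.11, 95% interval -0.10 to 0.38, edgeR adjusted p = 0.471) that was -0.14 with library totals.

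**Figure D3:**
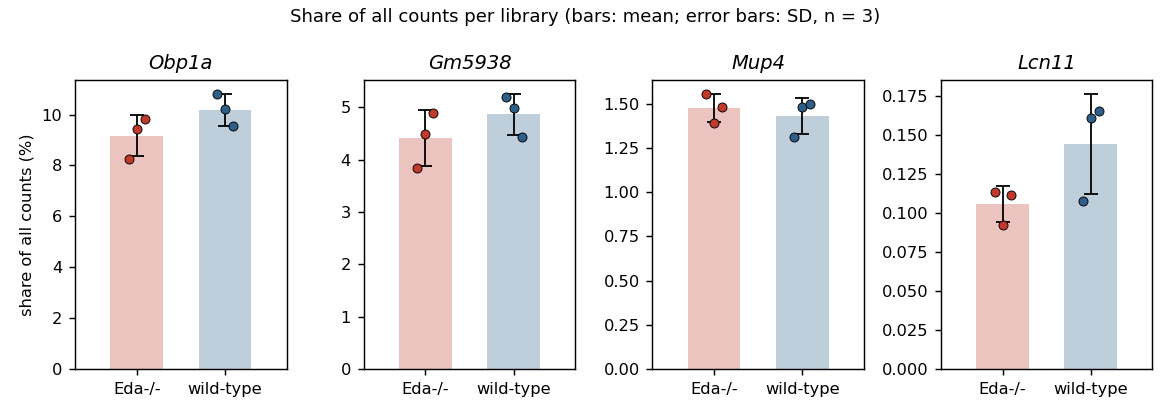
Share of all counts in percent for the 4 most abundant of the 8 genes, with bars at the mean, error bars of 1 SD and 1 point per library, Eda-/- left of wild-type. The groups overlap in each of the 4 panels.

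The ratio of Gm5938 to Obp1a within a library, which no scaling of libraries can move, was nearly constant. It does depend on how reads from sequence that Gm5938 and Obp1a share were counted, which is not given. Per 1000 counts of Obp1a, Gm5938 had 466, 476 and 499 counts in the Eda-/- libraries and 481, 488 and 465 counts in the wild-type libraries. The groups overlapped, and the log2 ratio differed by 0.01 between genotypes (exact permutation p = 0.9). Over 6 libraries and 6013 genes with a mean of at least 10 CPM, the genes whose log2 CPM was most like that of Obp1a were Oxr1 (Pearson r 0.997), Gm5938 (0.992), Tcp11l2 (0.989), Tlk1 (0.988) and Arih1 (0.976). These 6 points share the libraries and their scaling, and the values are a description. Mup4, at r 0.313, Obp1b, at 0.151, Lcn11, at -0.54, and Apod, at -0.57, did not follow Obp1a in this way.

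Obp1b (ENSMUSG00000067679.3), which encodes odorant-binding protein 1b, rose in Eda-/- glands at a level per kb more than 3 orders of magnitude below Obp1a. It had 846, 557 and 699 counts in the Eda-/- libraries and 292, 354 and 439 counts in the wild-type libraries. On the TMM scale it was at 73.9, 52.2 and 54.5 CPM in Eda-/- glands and at 18.2, 20.8 and 28.2 CPM in wild-type glands. Each Eda-/- library lay above each wild-type library. Its log2 fold change was 1.43 (SE 0.21, 95% interval 0.91 to 1.94, edgeR adjusted p = 0.00917), a 2.69-fold difference, and it was 1.15 with library totals (edgeR adjusted p = 0.0218).

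Gm14743 rose beside it. It had 5508, 5516 and 8729 counts in the Eda-/- libraries and 2594, 2458 and 3654 counts in the wild-type ones, and averaged 559 ± 106 CPM in Eda-/- glands and 180 ± 47.8 CPM in wild-type glands (SD, n = 3 each). The groups did not overlap, and the log2 fold change was 1.63 (SE 0.24, edgeR adjusted p = 0.016). Without wild-type 1 the adjusted p of Gm14743 was 0.0522. With the counts of Obp1b and Gm14743 summed, a setting added after the data were seen, the log2 fold change was 1.62 (edgeR adjusted p = 0.00882). Most of the summed counts are those of Gm14743, so the sum does not show how much of the rise of Obp1b is its own.

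**Figure D4:**
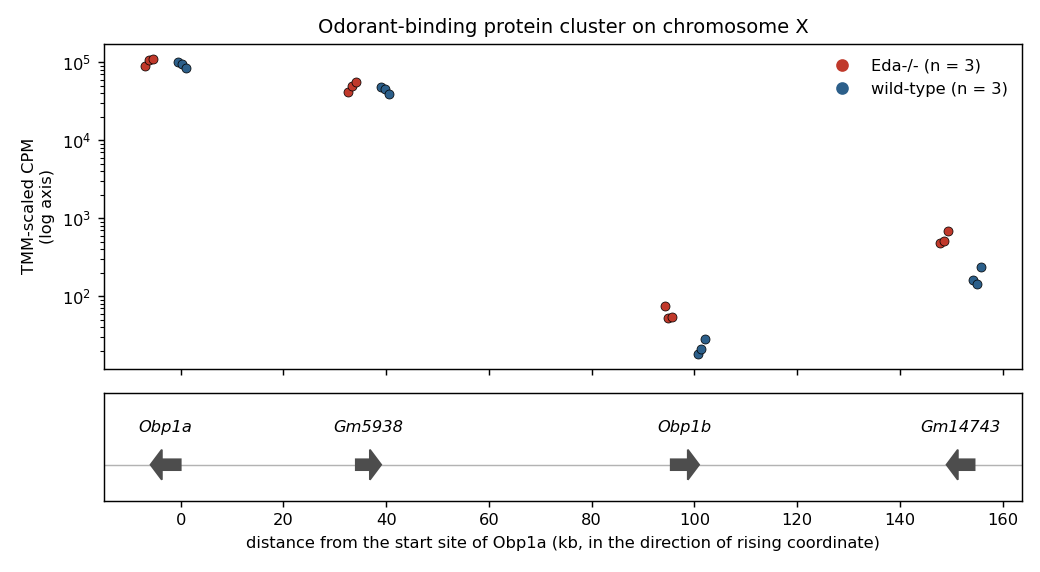
TMM-scaled CPM on a log axis for the 4 genes of the chromosome X cluster, 1 point per library with Eda-/- left of wild-type, above a map of the genes to scale in kb from the start site of Obp1a, with arrows in the direction of transcription. Obp1a and Gm5938 lie far above Obp1b and Gm14743, and the groups separate at Obp1b and Gm14743.

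Within libraries Obp1b had 0.836, 0.496 and 0.492 counts per 1000 of Obp1a in Eda-/- glands and 0.181, 0.221 and 0.337 in wild-type glands. Gm14743 had 5.44, 4.91 and 6.14 per 1000 of Obp1a in Eda-/- glands and 1.61, 1.53 and 2.80 in wild-type glands. Neither ratio overlapped between genotypes, with log2 differences of 1.31 and 1.52 (exact permutation p = 0.1 each, the smallest that the design allows). Obp1b against Gm14743 overlapped, at 154, 101 and 80.1 per 1000 in Eda-/- glands and 113, 144 and 120 per 1000 in wild-type glands (log2 difference -0.22, exact permutation p = 0.5). Adjusted over the 6 ratios computed, which were chosen after the data were seen, the smallest exact permutation p was 0.15.

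**Figure D5:**
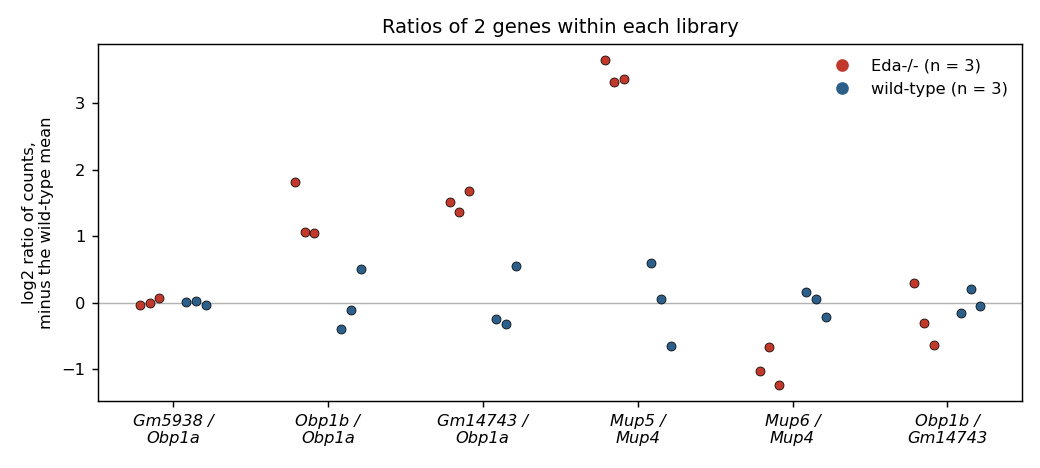
Log2 ratio of the counts of 2 genes within each library, set to the wild-type mean of that ratio, 1 point per library with Eda-/- left of wild-type. Gm5938 over Obp1a stays near 0 in all 6 libraries, Obp1b and Gm14743 over Obp1a and Mup5 over Mup4 lie higher in Eda-/- glands, and Mup6 over Mup4 lies lower.

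Near the odorant-binding protein genes of chromosome X, 4 of 34 other annotated genes within 1 Mb were tested. Apart from Gm14743, the transcriptional corepressor subunit Tbl1x fell by 0.29 on the log2 scale (37.5 ± 1.6 CPM in Eda-/- glands and 45.8 ± 3.67 CPM in wild-type glands, SD, n = 3 each, edgeR adjusted p = 0.0327, DESeq2 adjusted p = 0.0773). The kinase gene Prkx was at 7.85 CPM in Eda-/- glands and 9.03 CPM in wild-type glands and did not pass. Tbl1x passed without wild-type 1 and lost the call without each of the other 5 libraries in turn (edgeR adjusted p = 0.0575 to 0.141). Of 5 predicted relatives listed from the X chromosome, 3 were at 0 counts throughout and Gm14743 alone could be tested.

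Mup4 (ENSMUSG00000041333.6, chromosome 4, 59956804 to 59960710, minus strand) encodes a major urinary protein, a carrier of pheromones. It had 190568, 165635 and 214700 counts in the Eda-/- libraries and 195646, 232337 and 204862 counts in the wild-type libraries. As a share of all counts the groups overlapped, at 1.56%, 1.39% and 1.48% in Eda-/- glands and 1.31%, 1.48% and 1.499% in wild-type glands, with means of 1.48% ± 0.08 in Eda-/- glands and 1.43% ± 0.10 in wild-type glands (SD, n = 3 each, exact permutation p = 0.6). On the TMM scale they did not, at 16639, 15523 and 16740 CPM in Eda-/- glands and 12199, 13665 and 13150 CPM in wild-type glands. The log2 fold change was 0.33 (SE 0.08, 95% interval 0.15 to 0.50, edgeR adjusted p = 0.0152) with TMM and 0.046 (edgeR adjusted p = 0.664) with library totals. The call with TMM was lost without Eda-/- 3 (edgeR adjusted p = 0.0795), without wild-type 1 (0.0629) and without wild-type 3 (0.0529), with log2 fold changes of 0.29 to 0.37 over all 6 such fits.

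The changes among its relatives were larger. Of the 21 other Mup genes listed, 13 were at 0 counts throughout and 2 could be tested. Mup5, another major urinary protein gene, had 3131, 2166 and 2911 counts in the Eda-/- libraries and 388, 315 and 171 counts in the wild-type ones, and averaged 234 ± 35.8 CPM in Eda-/- glands and 17.9 ± 6.63 CPM in wild-type glands (SD, n = 3 each). It rose by 3.71 on the log2 scale, a 13.1-fold difference (SE 0.34, 95% interval 2.81 to 4.61, edgeR adjusted p = 0.0054). Mup6 went the other way, at 80, 90 and 78 counts in the Eda-/- libraries and 187, 208 and 152 counts in the wild-type ones, and fell by 0.66 on the log2 scale (SE 0.14, edgeR adjusted p = 0.00708).

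Against Mup4 in the same library, Mup5 had 16.4, 13.1 and 13.6 counts per 1000 in Eda-/- glands and 1.98, 1.36 and 0.835 per 1000 in wild-type glands, a log2 difference of 3.45 (exact permutation p = 0.1, the smallest possible). Mup6 had 0.420, 0.543 and 0.363 per 1000 of Mup4 in Eda-/- glands and 0.956, 0.895 and 0.742 per 1000 in wild-type glands (log2 difference -0.98, exact permutation p = 0.1). Neither ratio overlapped between genotypes. Of the 31-base words of Mup4 38.0% occurred in other genes, and 23.9% of its words occurred in Mup5. Of the words of Mup6 24.3% occurred in other genes, and 9.7% occurred in Mup4. The coding sequence of Mup4 was 92.0% identical to that of Mup5 and 91.8% to that of Mup6, so the split of reads among the 3 is uncertain. A given number of misplaced reads would weigh more on Mup5 and Mup6 than on Mup4, which had far more counts.

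Lcn11 (ENSMUSG00000069080.5, chromosome 2, 25777017 to 25780279, plus strand) is a lipocalin of a gene cluster on chromosome 2. It had 13916, 10970 and 16097 counts in the Eda-/- libraries and 15977, 25183 and 22574 counts in the wild-type libraries. Its TMM level was 1215, 1028 and 1255 CPM in Eda-/- glands and 996, 1481 and 1449 CPM in wild-type glands. Wild-type 1 was the lowest of the 6 libraries and the other 2 wild-type libraries were the highest, so the groups overlapped. Lcn11 had a log2 fold change of -0.17 (SE 0.15, 95% interval -0.52 to 0.19, edgeR adjusted p = 0.546), and -0.45 with library totals (edgeR adjusted p = 0.0811). It shared no 31-base word with another gene.

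Obp2a (ENSMUSG00000062061.3, chromosome 2, 25700043 to 25703326, plus strand), for which RefSeq gives the synonym Lcn13, lies in the same cluster and had 0 counts in all 6 libraries. At 3 counts over a group, this allows a level of up to 0.0777 CPM in Eda-/- glands and 0.0678 CPM in wild-type glands, limits that cover counting error only. Of 20 other lipocalins listed, 17 were in the table and 16 of them had counts, but only C8g and Ptgds passed the filter. C8g, a subunit of complement component 8, averaged 1.67 ± 0.70 CPM in Eda-/- glands and 1.34 ± 0.12 CPM in wild-type glands (SD, n = 3 each), and Ptgds, the lipocalin-type prostaglandin D synthase, averaged 0.62 ± 0.34 CPM in Eda-/- glands and 0.82 ± 0.59 CPM in wild-type glands. Neither passed (edgeR adjusted p = 0.526 and 0.70).

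Lcn2 (ENSMUSG00000026822.14, chromosome 2, 32384633 to 32388252, minus strand) encodes lipocalin 2, which binds bacterial siderophores and is induced through NF-kB and C/EBP factors in inflammation. It had 33, 21 and 22 counts in the Eda-/- libraries and 38, 36 and 76 counts in the wild-type libraries, or 2.88, 1.97 and 1.72 CPM in Eda-/- glands and 2.37, 2.12 and 4.88 CPM in wild-type glands. The groups overlapped, and wild-type 3 stood above the other 5. Lcn2 had a log2 fold change of -0.51 (SE 0.34, 95% interval -1.26 to 0.24, edgeR adjusted p = 0.378), and it was -0.03 without wild-type 3. At these counts the interval spans falls and rises alike.

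Of 14 listed inducers of Lcn2, all tested, none rose and 3 fell, where 6.9% of all tested genes were lower. The median log2 fold change of the 14 was -0.19. By limma-voom 1 of the 14 passed, and by DESeq2 1 passed that was none of these 3. The receptor of interleukin 1, Il1r1, was at 15.2 ± 1.1 CPM in Eda-/- glands and 20.2 ± 2.21 CPM in wild-type glands (SD, n = 3 each, log2 fold change -0.41, edgeR adjusted p = 0.0185, DESeq2 adjusted p = 0.0513). Cebpd, a C/EBP transcription factor, had a log2 fold change of -0.87 (edgeR adjusted p = 0.037, DESeq2 adjusted p = 0.0894), and Rela, the NF-kB subunit p65, of -0.52 (edgeR adjusted p = 0.0488, DESeq2 adjusted p = 0.0943). Without wild-type 3 the number of inducers that fell was 1 (0 to 4 inducers passed over the 6 fits that leave out a library), and Il1r1, Cebpd and Rela had edgeR adjusted p of 0.0605, 0.122 and 0.217. Il1r1 also lost its call without Eda-/- 1 (0.0741) and wild-type 1 (0.0852), Cebpd without Eda-/- 1 (0.0578), Eda-/- 3 (0.164) and wild-type 2 (0.0778), and Rela without each library but wild-type 1 (0.0658 to 0.217).

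None of 5 tested genes of iron and siderophore handling passed with TMM. With library totals 3 passed, as did 34.8% of all tested genes. The edgeR log2 fold change was 0.09 for the iron-binding tear protein Ltf and 0.09 for the ferritin light chain Ftl1 (-0.19 each with library totals). The transferrin receptor Tfrc was at -0.38, and it passed with library totals, with no filter on low counts and without wild-type 1. Neutrophils store lipocalin 2 protein in their granules. None of 10 neutrophil markers passed the filter, and their summed level was 0.187 to 0.698 CPM in Eda-/- glands and 0.748 to 1.22 CPM in wild-type glands. S100a8, S100a9 and Ly6g, which define neutrophils, had 0 or 1 count in each library.

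Among 9 receptors and partners of lipocalins 5 were tested, none rose and 1 fell, where 6.9% of all tested genes were lower. Lrp2, which encodes megalin, the endocytic receptor that takes up lipocalins and many other ligands, had 90, 68 and 77 counts in the Eda-/- libraries and 648, 565 and 500 counts in the wild-type libraries. The groups did not overlap, with means of 6.74 ± 0.98 CPM in Eda-/- glands and 35.2 ± 4.51 CPM in wild-type glands (SD, n = 3 each). The log2 fold change was -2.39 (SE 0.13, edgeR adjusted p = 2.7e-09). Slc22a17, a receptor for lipocalin 2, averaged 6.21 CPM in Eda-/- glands and 7.29 CPM in wild-type glands and did not pass.

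Apod (ENSMUSG00000022548.14, chromosome 16, 31296192 to 31314808, minus strand) encodes apolipoprotein D, a lipocalin that binds arachidonic acid and steroids and is made by fibroblasts and by glial cells of nerves. It fell in Eda-/- glands. It had 97, 80 and 124 counts in the Eda-/- libraries and 228, 279 and 341 counts in the wild-type libraries, or 8.47, 7.497 and 9.67 CPM in Eda-/- glands and 14.2, 16.4 and 21.9 CPM in wild-type glands. Each Eda-/- library lay below each wild-type library. Apod had a log2 fold change of -1.03 (SE 0.16, 95% interval -1.38 to -0.67, edgeR adjusted p = 0.00154), which is 0.491 times the wild-type level, and Apod passed under each of the 16 alternatives run, at -1.31 to -0.83.

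Some markers of other cell types fell as well, in lists that stand beside the 6.9% of all tested genes that were lower. Of 7 fibroblast markers, all tested, none rose and 3 fell, with a summed level of 160 to 185 CPM in Eda-/- glands and 201 to 262 CPM in wild-type glands and a median log2 fold change of -0.42. The matrix proteoglycan Dcn (-0.42, edgeR adjusted p = 0.00495), the growth factor receptor Pdgfra (-0.52, 0.00738) and the collagen chain Col1a2 (-0.62, 0.0196) fell. Of 6 tested Schwann cell markers Sox10, a transcription factor of glia, fell (-0.73, edgeR adjusted p = 0.035, DESeq2 adjusted p = 0.123) and none rose, with a summed level for the list of 16.4 to 19.5 CPM in Eda-/- glands and 21.9 to 23.7 CPM in wild-type glands. Col1a2 lost its call without each of the Eda-/- libraries in turn (edgeR adjusted p = 0.073 to 0.0921), and Sox10 without Eda-/- 2 (0.0707), Eda-/- 3 (0.15), wild-type 1 (0.116) and wild-type 2 (0.0708).

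Of 9 macrophage markers, all tested, none rose and 5 fell, among them Csf1r, the receptor for macrophage colony-stimulating factor (-1.01, edgeR adjusted p = 0.00591), Mrc1, the mannose receptor (-0.93, 0.00493), Tyrobp, a signalling adaptor (-1.71, 0.00391), and the complement gene C1qc (-1.75, 0.0292). Their summed level was 31.02 to 40.9 CPM in Eda-/- glands and 65.2 to 115 CPM in wild-type glands, with wild-type 3 highest, and 8 of the 9 fell without wild-type 3 (3 to 8 passed over the 6 fits that leave out a library). C1qc lost its call without each of the Eda-/- libraries in turn (edgeR adjusted p = 0.114 to 0.13). No marker of the 3 lists was at 0 in every library. The part of these cell types in the fall of Apod was not tested.

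The intracellular fatty acid and retinoid carriers, which share the barrel fold, were low. Of 15 listed 5 were tested, 2 rose and 1 fell, with a median of -0.90. Over all tested genes 6.21% were higher and 6.9% were lower, which also stands beside the adipocyte markers below. Fabp4, the fatty acid carrier of adipocytes, had 36, 34 and 30 counts in the Eda-/- libraries and 12, 7 and 16 counts in the wild-type libraries (log2 fold change 1.98, edgeR adjusted p = 0.000694). The retinol carrier Rbp7 had 18, 9 and 15 counts in the Eda-/- libraries and 6, 10 and 6 counts in the wild-type libraries, so that its groups overlapped in counts (1.39, edgeR adjusted p = 0.0263, DESeq2 adjusted p = 0.116). The retinoic acid carrier Crabp1 had 8, 16 and 10 counts in the Eda-/- libraries and 52, 47 and 45 counts in the wild-type libraries (-1.59, edgeR adjusted p = 0.00203). Fabp4 and Cfd, the adipocyte gene for complement factor D, were the 2 tested of 6 adipocyte markers and both rose, Cfd by 1.43 (edgeR adjusted p = 0.0418), at a summed level for the list of 4.68 to 6.64 CPM in Eda-/- glands and 1.93 to 2.43 CPM in wild-type glands. Rbp7 lost its call without Eda-/- 1 (edgeR adjusted p = 0.121), Eda-/- 3 (0.0759), wild-type 1 (0.079) and wild-type 3 (0.074), and Cfd without Eda-/- 1 (0.166), Eda-/- 2 (0.113), wild-type 1 (0.0786) and wild-type 3 (0.103). Cfd also did not pass by DESeq2 (adjusted p = 0.0641), by limma-voom (0.061) or with library totals in edgeR (0.0538).

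Markers of tissues that also make odorant-binding proteins or MUPs were read beside these genes. The summed level of 7 olfactory and nasal markers was 1.72 to 2.79 CPM in Eda-/- glands and 2.35 to 3.15 CPM in wild-type glands, and neither of the 2 tested passed. Liver markers, 6 in number, summed to 0 to 0.312 CPM in Eda-/- glands and 0.249 to 1.28 CPM in wild-type glands, and 10 salivary markers to 1.05 to 1.33 CPM in Eda-/- glands and 0.882 to 1.16 CPM in wild-type glands. None of the liver markers and 1 of the salivary markers could be tested, and that 1 did not pass. The 6 listed markers of the Harderian gland, which lies near the eye as well, summed to 122 to 159 CPM in Eda-/- glands and 129 to 185 CPM in wild-type glands. Of these markers 3 were tested and none passed. Such a sum does not show which tissue or cell type the reads came from. Of 4 tested duct markers none passed. Of 8 tested myoepithelial and basal cell markers 4 fell (2 or 3 passed with a library left out) and none rose. Over all tested genes 6.9% were lower.

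Neighbours within 1 Mb of the autosomal genes were read in the same way. Near Lcn11 and Obp2a, 58 neighbours were tested, of which the noncoding A230005M16Rik fell (-1.01, edgeR adjusted p = 0.0146) and the transcriptional coactivator Edf1 rose (0.29, 0.0443). Near Lcn2, 34 were tested, 4 rose and 3 fell (20.6%), the first by p being the laminin chain Lamc3 (-0.77, edgeR adjusted p = 0.00325), Tor2a (0.35, 0.00817) and the folate enzyme Fpgs (0.37, 0.0156). Near Apod, 20 were tested and the transporter Atp13a3 rose (0.29, edgeR adjusted p = 0.0128), and near Mup4, 8 were tested and Mup6 alone passed. Over all the windows 7 of 124 tested neighbours rose and 6 fell, or 10.5%, against 13.1% of all tested genes. With library totals 1 was higher and 32 were lower, against 1.87% higher and 33.0% lower over all tested genes. By DESeq2 Edf1 did not pass (DESeq2 adjusted p = 0.11). A230005M16Rik lost its call without Eda-/- 2 (edgeR adjusted p = 0.0559) and wild-type 2 (0.0776), Edf1 without each library but Eda-/- 2 (0.0641 to 0.134), Fpgs without Eda-/- 1 (0.0542) and Atp13a3 without Eda-/- 3 (0.0692).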

How the data were processed

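The authors deposited raw counts of reads per gene, a whole-number column per library. Per the submitters' processing notes they used STAR, featureCounts, Trimmomatic, bcl2fastq and DESeq2 with build GRCm38.p5. Versions, strand setting and treatment of multiply mapping reads are not stated in the labels. Per the labels' protocols, directional libraries followed removal of ribosomal RNA. Symbols came from GENCODE M21, matching 50462 of 50686 identifiers. The genotype label gave the groups and the titles gave the replicate numbers. No column of per-sample values was left unmatched.

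The tests used edgeR 4.0.16 in R 4.3.3, with filterByExpr (minimum count 10, 13178 genes), TMM, genotype alone, robust quasi-likelihood fits, two-sided tests and Benjamini-Hochberg adjustment at 0.05. The procedure was tested on simulated data. Promoters came from RefSeq for 8 of 8 genes. Alternatives were DESeq2 1.42.0, limma-voom (limma 3.58.1), other scalings and filters, a replicate block and each library left out. Genes were named by a rule set with the lists, and the genes and lists were chosen with earlier results of these data known. Slc22a17 lies outside that rule and was chosen after its values were seen. Replicate libraries differed beyond sampling noise (chi-square per degree of freedom 9.62 to 28.2). Reads carry no molecular identifiers.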

Additional observations from a re-analysis of the deposited data

How the results depend on the processing

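Of the 8 genes, Apod kept its call under each alternative run, and Lcn2 and Lcn11 kept their direction and did not pass. With library totals, which move the median gene to -0.28, Obp1a was at -0.15, Gm5938 at -0.14, Ltf at -0.19, Ftl1 at -0.19 and Mup4 at 0.046 (log2, none passing by edgeR), 4590 genes passed (247 higher, 4343 lower) against 1728 (819 higher, 909 lower), 48 genes of the lists of partners, inducers, calycins and markers against 23, and 33 neighbours within 1 Mb (1 higher, 32 lower) against 13 (7 higher, 6 lower). The neighbours passing by DESeq2 were 8. The members' share of all counts differed by 1.12 percentage points outside the 20 most abundant other genes and by 1.63 points with TMM. With each library left out in turn, 1162 to 1428 genes passed, 13 to 26 list genes, 8 to 11 neighbours, and 2 or 3 of the 8 genes. Mup4 was at 0.29 to 0.37, Ptgds at -0.84 to 0.23 (above 0 without wild-type 1) and C8g at -0.028 (without Eda-/- 3) to 0.59. The replicate numbers did not pair the samples (correlations of same-numbered deviations -0.04, 0.02 and -0.09), and with a replicate block 1608 genes passed and Obp1b was at 1.43 with an edgeR adjusted p of 0.0507. Over 32 other genes named in the text, 400 of 476 values under alternatives kept direction and call. Of the rest 69 lost the call, 3 gained it, all of them for Tfrc, and 4 reversed. The cause of these changes was not tested. Depth limits genes such as Lcn2, Ptgds, C8g, Rbp7, Fabp4 and Crabp1, with under 100 counts in each library, and copies limit Obp1b and the Mup genes.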
